A study of Bos taurus and Bos indicus x Bos taurus with 938 samples.

Results

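The rows described here are 65141 open-chromatin regions called in single blastomeres of bovine embryos and make up 21.5% of all regions of the table. They lie in 7 of the blocks into which the numbering of the regions falls, and they were selected on their own values, as rows open in 98 or fewer of the columns of the table, of which each is a blastomere (under 12%). The blocks are numbered by their order in the table. They are block 2 (rows V17001 to V29000), block 3 (V29001 to V41000), block 5 (V49901 to V59400), block 6 (V59401 to V68300), block 7 (V68301 to V77100), block 8 (V77101 to V85500) and block 9 (V85501 to V93300). The 65141 rows are 96.6% of the rows of these 7 blocks and hold 19.8% of the open calls of the 29 blocks.

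The assay was ATAC-seq, in which a transposase cuts and tags accessible DNA, on blastomeres put into tubes one by one with the embryo of origin recorded. Embryos came from in vitro fertilisation (IVF, labelled Bos indicus x Bos taurus) or from somatic cell nuclear transfer (SCNT, labelled Bos taurus), in which a somatic nucleus replaces that of the oocyte. Both kinds used oocytes matured in the laboratory, and the groups compared are embryos labelled as 2-, 4- and 8-cell. No treatment separates the groups beyond the way the embryo was made, and type, organism label and title prefix go together, so these cannot be told apart.

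In a single blastomere each stretch of the genome is present in very few copies, so a region is found open or is missed. A call of 0 is given alike by closed chromatin, by DNA that was not recovered and by DNA that is not in the cell. The first cleavage divisions of mammalian embryos are known for frequent errors in handing chromosomes to the daughter cells. Cattle have 29 pairs of autosomes, but the files give no position for any region, and whether a block corresponds to a chromosome was not tested.

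The 7 blocks hold 11555, 11563, 9176, 8648, 8492, 8163 and 7544 members, in the order in which they were named. A member was open in a median of 18 columns (quartiles 12 and 29, range 4 to 98), and the medians of the single blocks ran from 17 to 20. The rare rows of the other 22 blocks also had a median of 18. At the limit, 34 members were open in 98 columns, and 47 rows of these blocks were left out with 99. In each block the member open in most blastomeres reached 98 columns, as did V18167 of block 2, V32065 of block 3 and V52062 of block 5. In blocks 6 to 9 these members were V63537, V68420, V80074 and V86979. Rows just outside, with 99 columns, were V17734, V32047, V50368, V59404, V68755, V77695 and V87073.

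Every value is a call of 0 or 1, so read depth is unknown, and the blastomere's number of open calls over rows V1 to V274100 was used in its place. It ran from 2000 to 114049 (median 7835) in the blastomeres, from 210 embryos, that had at least 2000 calls. For each blastomere and block, the calls observed over the members were divided by the number expected from that total, which gives a relative coverage with 1 as the expected level. A block under 0.1 is called absent here, and one at 1.5 or more raised. The expected calls per block had medians of 174.4 (block 9) to 267 (block 3), and the lowest was 43.3. Of 4767 values of coverage 84 were under 0.05, 89 lay between 0.05 and 0.1, and 45 more lay between 0.1 and 0.15. At the other limit 417 values were raised, 74 of them under 1.6. Both classes are therefore ranges of a continuous measure. No absent value was free of calls, so an absent block still held some open members.

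IVF blastomeres lacked blocks at each stage, and SCNT blastomeres seldom did. At the 2-cell stage 47 IVF blastomeres from 32 of 65 embryos lacked at least 1 of the 7 (39.8%, with an exact 95% interval of 30.9 to 49.3). Among IVF 4-cell blastomeres 12 of 62 did (19.4%, 10.4 to 31.4), and these came from 6 of 20 embryos. Among IVF 8-cell blastomeres 10 of 89 did (11.2%, 5.52 to 19.7), all of them from 2 of 14 embryos. In SCNT embryos the counts were 1 of 42 blastomeres at 2 cells (2.38%), 1 of 58 at 4 cells (1.72%) and 0 at 8 cells, where a count of 0 leaves room for 2.42% (3 blastomeres). Intervals and limits cover counting error only and take blastomeres of an embryo as independent.

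**Figure D1:**
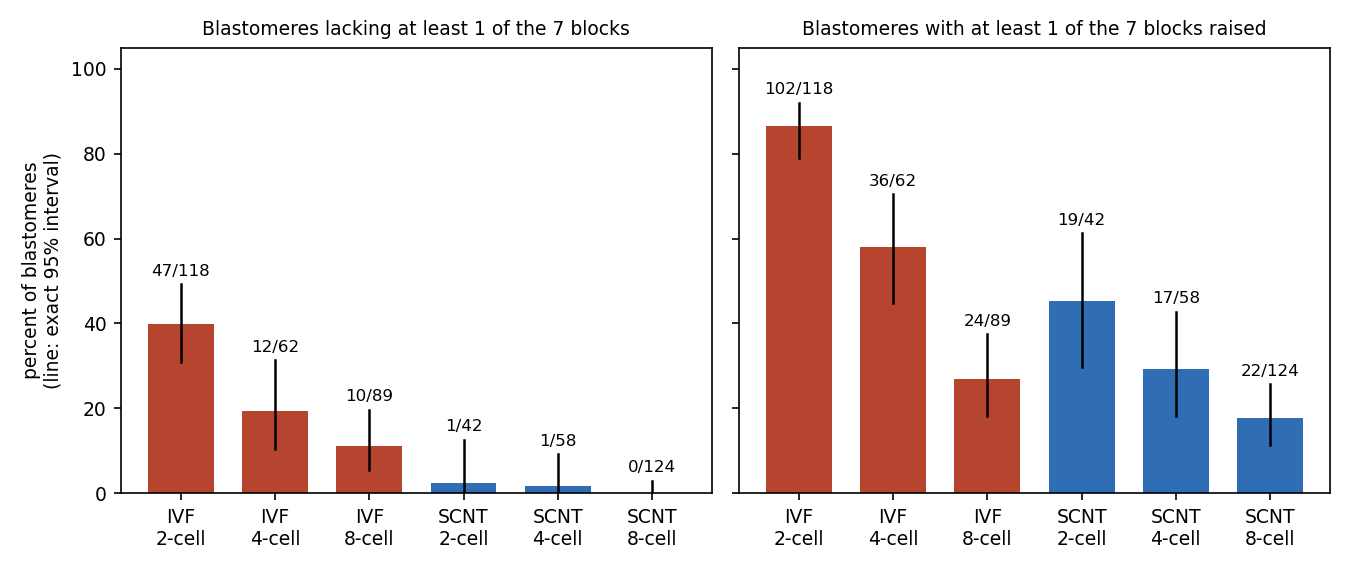
Percent of blastomeres that lacked at least 1 of the 7 blocks (left) and that had at least 1 raised (right), with counts above the bars and exact 95% binomial intervals as lines. The IVF bars on the left stand at 39.8, 19.4 and 11.2%, and the SCNT bars at 2.38, 1.72 and 0%.

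All 7 blocks took part in the losses. In IVF 2-cell blastomeres block 6 was absent in 17 (14.4%, exact 95% interval 8.62 to 22.1), block 9 in 16, blocks 2 and 7 in 12 each, blocks 5 and 8 in 11 each and block 3 in 10 (8.47%, 4.14 to 15.03). The intervals of the highest and the lowest overlap. The other blocks were not spared: 10.8% of all values of the 7 blocks were absent in this group and 10.1% of those of the other 22. Over the 29 blocks the number of IVF 2-cell blastomeres lacking a block ran from 6 to 17, with a median of 12, which is also the median of the 7. At the 4-cell stage the 7 blocks were absent in 2 (block 3) to 6 blastomeres (block 5), and at the 8-cell stage in 2 to 7 (block 3). Over the 29 blocks these counts ran from 1 to 12 (median 3) and from 1 to 16 (median 2). At 4 cells 6.68% of the values of the 7 blocks and 6.67% of those of the other 22 were absent. At 8 cells it was 3.21% and 4.39%.

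Raised values occurred in both kinds of embryo. They outnumbered absent ones, but the limits of 1.5 and 0.1 are not equally far from 1. In IVF 2-cell blastomeres block 2 was raised in 24 and absent in 12, with a further 33 between 0.1 and 0.65. In IVF embryos 86.4% of the 2-cell blastomeres had at least 1 of the 7 blocks raised, with 36 of 62 at 4 cells (58.1%) and 24 of 89 at 8 cells (27%). In SCNT embryos it was 19 of 42 (45.2%), 17 of 58 (29.3%) and 22 at 8 cells (17.7%). The share of single values that were raised was 23.4% in IVF 2-cell and 8.84% in SCNT 2-cell blastomeres. Over the other 22 blocks this share was 21.8% and 14.3%, so IVF and SCNT lay closer there. Since coverage is relative to the blastomere's own total, the loss of some blocks shifts the coverage of the others upwards by construction, without necessarily taking them to 1.5. Of the IVF blastomeres lacking any of the 29 blocks, 92.1% at 2 cells, 63.6% at 4 cells and 68.2% at 8 cells had at least 1 of the 7 raised. Among IVF blastomeres that lacked none of the 29 blocks, 32 of 42 at 2 cells (76.2%), 15 of 29 at 4 cells (51.7%) and 9 of 67 at 8 cells (13.4%) still had a raised block. In SCNT these were 17 of 39 (43.6%), 14 of 53 (26.4%) and 22 at 8 cells (17.7%).

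The highest values lay far above the medians of their groups. Block 2 reached 8.32 in IVF 2-cell blastomeres, where block 8 reached 6.87 and block 9 reached 6.57. In SCNT 2-cell blastomeres block 8 reached 8.52. In IVF 8-cell blastomeres block 3 ran from 0.0377 to 7.31 with a median of 0.900. Both ends of that range came from embryos with losses. In SCNT 8-cell blastomeres block 3 ran from 0.436 to 1.81 with a median of 0.935. The medians of all 7 blocks lay between 0.821 and 0.994 in IVF 2-cell and between 0.830 and 1.01 in SCNT 2-cell blastomeres. These groups thus overlapped at the middle. At the low end they differed, with 10.8% of values absent in IVF and 1.36% in SCNT. At the high end raised values were more frequent in IVF, though the highest value was in SCNT. In SCNT 8-cell blastomeres, which differ from IVF 2-cell ones in stage too, the medians lay between 0.832 and 1.01.

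**Figure D2:**
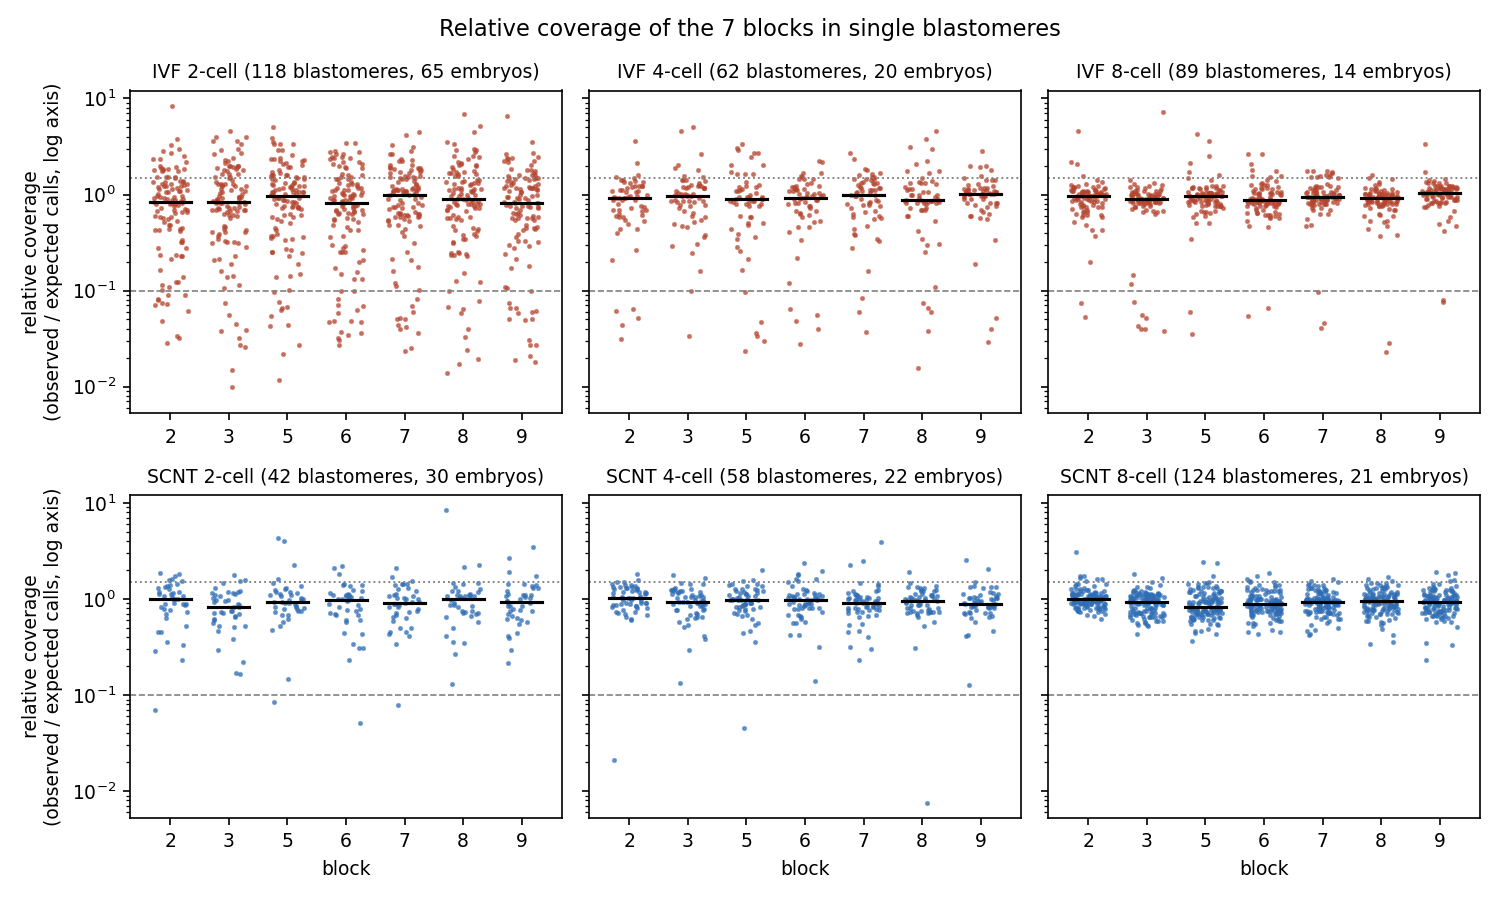
Relative coverage (observed over expected calls, log axis) of each of the 7 blocks, with 1 point per blastomere and a black line at the median, in IVF (red) and SCNT (blue) embryos of 2, 4 and 8 cells. The dashed line marks 0.1 and the dotted line 1.5. Points under 0.1 lie almost wholly in the IVF panels, and the medians of all panels lie near 1.

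The number of calls moved with these shares, though not in 1 direction. Lacking a block was found in 8 of 35 IVF 2-cell blastomeres with 2000 to 5000 calls (22.9%), in 16 of 36 with 5000 to 10000 (44.4%) and in 23 of 47 with more (48.9%). In IVF 8-cell blastomeres the same classes gave 16.7% (1 of 6), 25% (7 of 28) and 3.64% (2 of 55). A raised block was found in 77.1, 91.7 and 89.4% of the IVF 2-cell blastomeres of these classes, and in 66.7, 35.7 and 18.2% of the IVF 8-cell ones. In SCNT 2-cell blastomeres a raised block was found in 17 of 26 with 2000 to 5000 calls (65.4%) and in 2 of 14 with 10000 or more (14.3%). The median number of calls was 8029 in IVF 2-cell and 4594.5 in SCNT 2-cell blastomeres. The part of depth in the gains of SCNT blastomeres was not tested.

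Comparisons between groups used the embryo as the replicate, with the mean over its blastomeres, and a two-sided permutation test per block. The p-values were adjusted by Benjamini-Hochberg over the 29 blocks and all comparisons of a measure. Each p sets the difference of group means against the differences found when embryos are regrouped, and so rests on the spread between embryos. The planned measures were the mean coverage of a block and the percent of an embryo's blastomeres in which it was absent. Neither called any of the 7 blocks in any comparison over all embryos.

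For mean coverage, SCNT against IVF called 0 of the 7 at 2 cells, where 3.45% of the 29 blocks were called, 0 at 4 cells (0%) and 0 at 8 cells (3.45%). The stage comparisons also called 0 of the 7, namely IVF 4-cell against 2-cell (0%), IVF 8-cell against 2-cell (0%) and SCNT 8-cell against 2-cell (0%). One block of the 7 had an unadjusted p under 0.05, at 2 cells. That was block 3, with a coverage of 0.840 ± 0.362 in SCNT and 1.09 ± 0.524 in IVF embryos (SD, n = 30 and 65, permutation test, p = 0.0204, adjusted p = 0.444). The lowest adjusted p of any of the 7 blocks in the other 5 comparisons was 0.533.

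For the percent of blastomeres in which a block was absent, 0 of the 7 blocks passed in SCNT against IVF at 2 cells (0% of the 29), at 4 cells (0%) and at 8 cells (0%), nor in IVF 8-cell against 2-cell embryos (0%). At 2 cells 2 of the 7 and 12 of the 29 had an unadjusted p under 0.05. Block 9 was absent in 0% of the blastomeres of SCNT embryos and in 13.1 ± 25.4% of those of IVF embryos (SD, n = 30 and 65, permutation test, p = 0.0084, adjusted p = 0.195). Block 8 was absent in 0% and 9.23 ± 21.5% (p = 0.0259, adjusted p = 0.257 by the same test). At the other stages 0 of the 7 had an unadjusted p under 0.05. A loss that strikes another block in each embryo leaves few embryos per block, and the difference of the shares lacking any of the 7 was described above without a test.

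A further measure was added after these results had been seen, because the spread of coverage visibly differed where its mean did not. It is the departure from the expected level in either direction, the mean absolute log2 of coverage over an embryo's blastomeres, with values under 0.05 set to 0.05. Its calls come from a measure chosen on these data, after 2 measures had called nothing, and the adjustment does not cover that choice. With it SCNT against IVF called 6 of the 7 blocks at 2 cells, where 72.4% of the 29 were called, 2 of 7 at 4 cells (20.7%) and 1 of 7 at 8 cells (6.9%). IVF 4-cell against 2-cell embryos gave 1 of 7 (3.45%), IVF 8-cell against 2-cell 4 of 7 (44.8%) and SCNT 8-cell against 2-cell 1 of 7 (10.3%). In every case called the departure was lower in SCNT than in IVF, or at the later than at the earlier stage.

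The calls of this measure lay close to the threshold. At 2 cells the departure of block 9 on the log2 scale was 0.58 ± 0.54 in SCNT and 1.25 ± 1.03 in IVF embryos (SD, n = 30 and 65, permutation test, adjusted p = 0.0249), and block 5, which did not pass, had 0.65 ± 0.85 and 1.14 ± 1.00 (adjusted p = 0.061). With blastomeres of at least 5000 calls only, 0 blocks were called in all 6 comparisons, and likewise with embryos that had every blastomere kept. Both leave fewer embryos. For block 9 at 2 cells the difference was -0.67 over all embryos and -0.91 with at least 5000 calls (adjusted p = 0.0737). Scaling to the median block made it smaller, at -0.47 (adjusted p = 0.0849), and block 8 was lost as well (-0.41, adjusted p = 0.105). With all rows of the blocks, block 7 was lost at 2 cells (adjusted p = 0.0596), and with thinning to 2000 calls block 5 was gained (adjusted p = 0.0464).

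Stage and title prefix overlap within a type. All 14 IVF 8-cell embryos have prefix 15287, which holds 3 of the 65 IVF 2-cell embryos. Within that prefix the departure of block 9 was 0.41 at 8 cells and 2.63 at 2 cells (exact permutation test, unadjusted p = 0.00294), and that of block 2 was 0.50 and 1.54 (unadjusted p = 0.0544 by the same test). Block 3 went the other way there, at 0.68 and 0.56, against a pooled difference of -0.52 that did not pass. For IVF 4-cell against 2-cell embryos block 9 fell by 0.78 within prefix 15286 (permutation p = 0.00345) and by 1.43 within 15287 (5 and 3 embryos, exact permutation p = 0.143). For SCNT 8-cell against 2-cell embryos block 2 differed by -0.48 in prefix 15243 (permutation p = 0.0461) and by -0.20 in 15244 (exact permutation p = 0.049). The other blocks did not all fall in 15244. There blocks 5, 7 and 9 differed by 0.15, 0.04 and 0.02, and blocks 3, 6 and 8 by -0.10, -0.02 and -0.02. In 15243 all 7 blocks were lower at 8 cells. By the planned measures, 2 of 35 tests of the 7 blocks within a prefix had an unadjusted p under 0.05 for coverage and 2 of 7 for absence. For SCNT 8-cell against 2-cell embryos in prefix 15244, coverage was 0.934 and 1.24 in block 8 (9 and 5 embryos, exact permutation p = 0.000999, adjusted p = 0.107) and 0.860 and 1.11 in block 5 (p = 0.00599, adjusted p = 0.288 by the same exact permutation test). In prefix 15243 the difference in block 8 was -0.22 (permutation p = 0.868). For IVF 8-cell against 2-cell embryos in prefix 15287, block 9 was absent in 2.86 and 50% of an embryo's blastomeres and block 2 in 2.86 and 33.3% (exact permutation p = 0.0221 each, adjusted p = 0.320). With adjustment over the 29 blocks and the comparisons within prefixes, 0 blocks passed by coverage, absence or departure, and for departure 9 of 35 tests of the 7 blocks had an unadjusted p under 0.05. Comparisons of SCNT with IVF have no value within a prefix.

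Blocks were lost together more often than their single rates would give. Of the IVF 2-cell blastomeres 71 lacked none of the 7 blocks, 25 lacked 1, 22 lacked 2 or more and 12 lacked 3 or more. If each block were lost at its own rate independently of the others, these numbers would be 53.02, 45.1, 19.9 and 3.65. The excess thus lay in blastomeres with no loss and in those with 3 or more, and the count with exactly 2 was lower than that product gives. The product assumes the same rates in every blastomere and serves as a description, with no test. No blastomere lacked all 7, and the most in this group was 5, in 4 blastomeres.

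**Figure D3:**
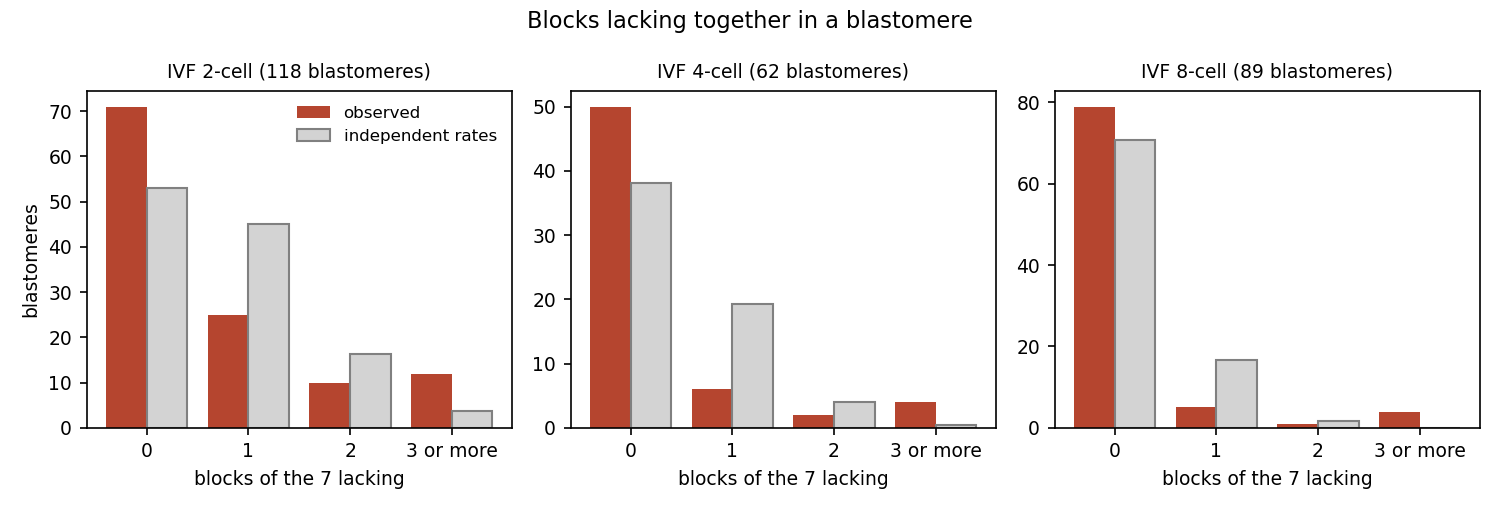
Number of IVF blastomeres that lacked 0, 1, 2, or 3 or more of the 7 blocks, as observed (red) and as the product of the single rates would give (grey), at 2, 4 and 8 cells. Blastomeres with 3 or more number 12, 4 and 4, against 3.65, 0.505 and 0.0800.

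Summed over the 21 pairs of blocks, both blocks of a pair were absent 74 times in IVF 2-cell blastomeres, where the product of the rates gives 28.6, a ratio of 2.59. Over all 406 pairs of the 29 blocks the ratio was 2.43. Blocks next to each other in the table had a ratio of 2.88 over 5 neighbouring pairs, and the other 16 pairs one of 2.49. A boundary was placed only where the correlation between the rows on each side was under 0.2. Neighbours that varied together at their border would not have been separated, so these ratios cannot decide whether neighbours are lost together more often. Of the 21 pairs 20 lay above their product. Most often lost together were pairs with 5 blastomeres each, a number reached by 7 pairs, among them blocks 3 and 6 (1.44 by the product), blocks 5 and 9 (1.49) and blocks 8 and 9 (1.49). The fewest were found for blocks 3 and 5 (1 blastomere, 0.932 by the product) and blocks 3 and 9 (1 blastomere, 1.36 by the product), the last of which is the one pair under its product.

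Losses of the 7 went with losses elsewhere. Of the 47 IVF 2-cell blastomeres that lacked 1 or more of the 7, 42 also lacked at least 1 of the other 22 blocks (89.4%), against 29 of the 71 that lacked none of the 7 (40.8%). Blastomeres lacking 2 or more of the 7 lacked a median of 5.5 of the other 22 (range 0 to 13), and those lacking 1 a median of 1 (range 0 to 9). Their median numbers of calls were 10025.5 and 8064, and 7483 where none was lacking, with wide overlap. The coverage of 2 blocks was nearly unrelated when all its range was used. Over the 21 pairs and the blastomeres of this group (71, 25 and 22) Pearson's r of log2 coverage ran from -0.302 to 0.298 with a median of 0.0804, and with coverage scaled to the blastomere's median block the median was 0.0147. All these values share the blastomere's library and its total.

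At the 4- and 8-cell stages joint loss rested on few embryos. Both blocks of a pair were absent 41 times at 4 cells (5.71 by the product) and 16 times at 8 cells (1.81 by the product). These are ratios of 7.18 and 8.84. Over all 406 pairs of the 29 blocks the ratios were 4.66 and 7.55, so joint loss was not particular to the 7 blocks. Without embryo K, which held 15 of the losses at 4 cells, the 41 became 16 (1.40 by the product). The blastomeres lacking 3 or more of the 7 then fell from 4 to 1. The ratio to the product was 7.18 with embryo K and 11.5 without it, the latter from only 2 blastomeres lacking 2 or more. Without embryo L, which held 15 of the 20 losses at 8 cells, no pair of blocks was lost in any blastomere and the share lacking a block was 5.95%. At 2 cells no single embryo weighed so much: without embryo N, which held 7 losses, the pairs numbered 63 and the ratio was 2.55. These embryos were singled out after their values were seen, as were all embryos named below, which carry letters here (blastomere A of embryo K is K-A).

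In 4-cell embryo K each of the 4 blastomeres lacked another set of blocks. Blastomere K-A lacked blocks 2, 5, 6, 7, 8 and 9 and had block 3 at 4.55. Blastomere K-B lacked blocks 2 and 8 and had block 5 at 2.93 and block 6 at 2.22. In K-C blocks 2, 3, 6 and 7 were absent and block 5 stood at 3.08, and in K-D blocks 5, 6 and 8 were absent and block 3 stood at 1.51. Every block was thus present in at least 1 of the 4, and 3 blocks were lacking in all but 1 of them. These were block 2 (1.23 in K-D), block 6 (2.22 in K-B) and block 8 (1.49 in K-C).

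Both 8-cell embryos with losses showed other patterns. In embryo L, 5 blastomeres were kept, and L-A and L-B both lacked blocks 3 and 7, while L-C and L-G both lacked blocks 2, 6 and 9. Block 3 was at 0.0399 and 0.0395 in the first pair and at 7.31 and 1.33 in the second, and block 2 was at 2.21 and 4.58 in the first pair and at 0.0745 and 0.0533 in the second. The 2 pairs were therefore complementary over blocks 2 and 3. Blastomere L-F lacked blocks 5, 7 and 8. In embryo M, by contrast, block 3 alone was lost, with coverages of 0.0523, 0.0554, 0.0768, 0.0423 and 0.0377 in M-B, M-C, M-D, M-E and M-G and of 0.118 in M-F. All 6 blastomeres kept from this embryo were low in block 3, on 5780 to 18783 calls, and none lacked another of the 29 blocks.

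**Figure D4:**
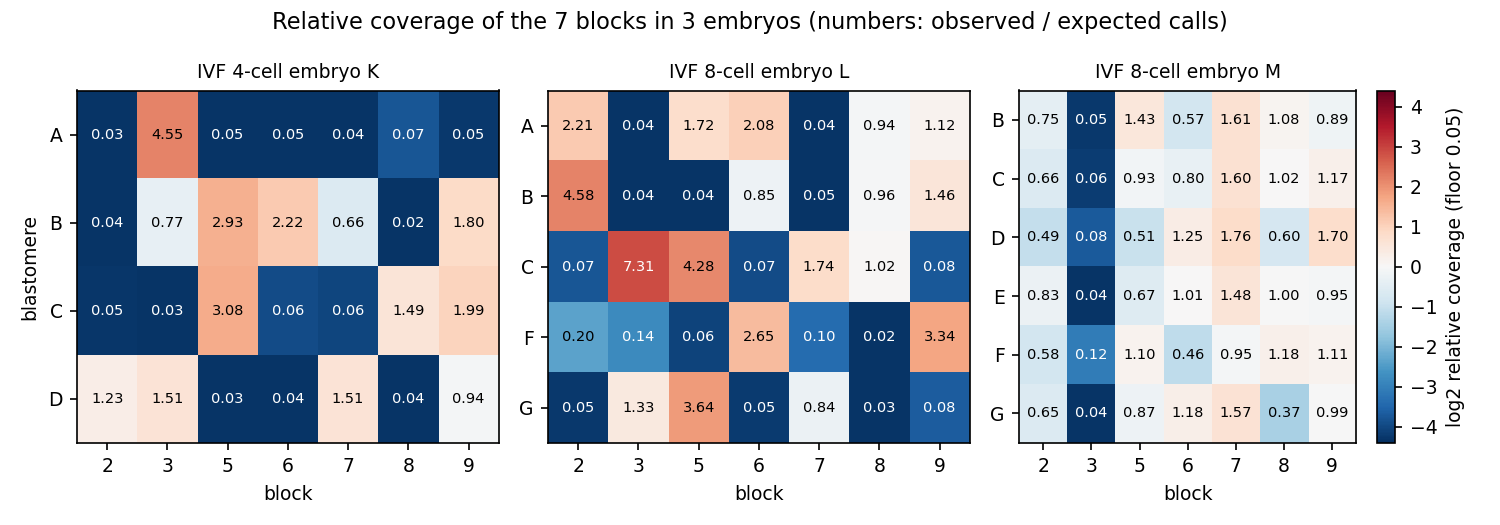
Relative coverage of the 7 blocks in each blastomere kept from IVF embryos K (4-cell), L and M (8-cell). Colour gives log2 coverage with a floor of 0.05 and the numbers give coverage itself. Losses differ between the blastomeres of K and L, while in M block 3 is low in all 6.

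In IVF 2-cell embryos most losses were seen in 1 of the 2 sisters only. Both blastomeres were kept in 53 embryos, of which 28 had a loss among the 7 blocks. In 73 cases a block was absent from 1 sister only, and in 5 from both. Single blocks were absent in 8.47 to 14.4% of all IVF 2-cell blastomeres. At such rates losses in both sisters would be few even if sisters were independent. The counts of 73 and 5 therefore do not show that a loss in 1 sister spares the other, which was not tested. Where 1 sister lacked a block, the other had a coverage of 0.108 to 6.87 with a median of 1.61. It lay above 1 in 57 of 73 cases (78.1%), against 42.3% of all values of the 53 embryos, and was raised in 43 (58.9%), against 23.5%. The other sister's value is at least 0.1 by selection, while all values include the absent ones, so part of this contrast is built in. With coverage scaled to the median block 59 lay above 1. By block the median of the other sister ran from 1.29 (block 3) to 2.27 (block 8), over 8 to 13 cases each. The relation of block 8 between sisters had a Pearson's r of -0.591 over 53 pairs and that of block 6 one of -0.0656.

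Sets of blocks were split between the sisters as well as lost together. A pair of blocks was lost in the same sister 71 times, and 1 block in each sister 39 times. In 18 embryos 1 sister lacked 2 or more blocks, in 11 the sisters lacked different blocks, and 10 embryos showed both. In embryo N, blastomere N-A lacked blocks 5, 6, 7, 8 and 9 and had block 3 at 3.60, while N-B lacked blocks 2 and 6 and had block 7 at 4.51. In the 12 SCNT 2-cell embryos with both blastomeres kept no block of the 7 was absent.

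Each block was cut into 10 stretches of equal numbers of members. Over the blastomeres lacking a block the pooled coverage of its stretches lay between 0.0178 and 0.114, for 20 to 28 blastomeres a block; the limit of 0.1 on the whole block sets their mean, so low values here follow from how these blastomeres were chosen. Rows of the same blocks that are not members, being open in 99 or more columns, were low in these blastomeres too. They are not among the calls counted for a block's coverage, but they are part of the blastomere's total from which expected calls were fitted. The block boundaries were also found from all rows, these included, as places where neighbouring rows stop being open in the same blastomeres. That they follow the members of their block is therefore in part set by how the blocks were drawn. Their pooled ratio of observed to expected calls in the blastomeres lacking the block was 0.0775 (block 8) to 0.167 (block 6), against 1.06 to 1.09 where the members were between 0.65 and 1.5. In blastomeres with the block raised it was 1.32 to 1.44. Across all blastomeres kept, Pearson's r between the log2 coverage of members and of these rows was 0.565 in block 2 and 0.553 in block 3. Both kinds of row come from the same library and blastomere.

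Some blastomeres lacked only an end of a block. An end was counted as lost where a run of stretches from the first or the last row had a coverage under 0.1 and the rest had at least 0.5. There were 57 such cases in 37 blastomeres of 26 embryos, 46 in IVF and 11 in SCNT blastomeres, and 17 of the 57 were in block 3. Of the 11 SCNT cases 7 were in embryos 35 and 89, which also held all 7 whole losses of the SCNT embryos. In 3 IVF 2-cell embryos the sisters lacked opposite ends of block 3. In embryo Q, blastomere Q-A had coverages of 1.51 to 1.81 in stretches 1 to 5 and of at most 0.0222 in stretches 6 to 10. Its sister Q-B had at most 0.0442 in stretches 1 to 4, 0.875 in the fifth stretch and 4.04 to 6.11 in stretches 6 to 10. The break thus fell within 1 stretch of the same place in both.

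**Figure D5:**
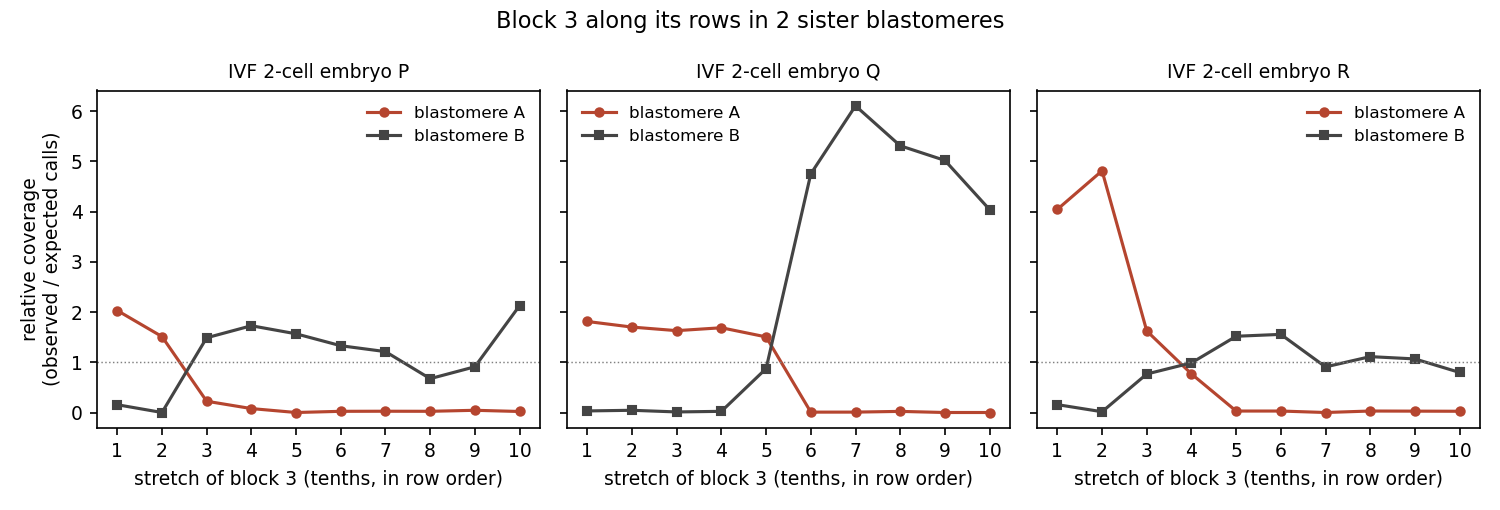
Relative coverage of 10 successive stretches of block 3 in both sisters of IVF 2-cell embryos P, Q and R, on a linear axis with 1 as the expected level. In each embryo the sister low on the left is covered on the right and the reverse.

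In embryo P the loss began earlier in the block. Blastomere P-A had 2.03 and 1.51 in the first 2 stretches, 0.224 in the third and at most 0.0781 after that, and P-B had 0.155 and 0 in the first 2 and 0.674 to 2.13 in the others. In embryo R, blastomere R-A had 4.05 and 4.81 in the first 2 stretches, 1.62 and 0.768 in the next 2 and at most 0.0294 in the last 6, while R-B had 0.156 and 0.0151 in the first 2 and 0.767 to 1.56 in the rest. The stretches of R-A with intermediate values overlap those covered in its sister. In 2 further cases blastomeres of an embryo lacked the same end of a block.

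Both SCNT blastomeres with an absent block lacked several. Blastomere 35A, of a 2-cell embryo and with 13605 calls, lacked blocks 2, 5, 6 and 7 at coverages of 0.0693, 0.0847, 0.0512 and 0.0796, and 9 of the 29 blocks in all. Its sister is not among the blastomeres kept. Blastomere 89C, of a 4-cell embryo and with 5722 calls, lacked blocks 2, 5 and 8 at 0.0212, 0.0453 and 0.00748 and had block 6 at 1.96, and it lacked 18 of the 29. The medians of the other blastomeres kept from embryo 89 were 0.844 to 1.27 in those blocks. Both are of prefix 15243.

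A pair of libraries assigned to different SCNT 8-cell embryos, with 4532 and 5515 calls, shared more of their open regions than any other pair from different embryos (Jaccard index 0.320). Whether they are independent was not tested. Embryo numbers that recur under another prefix or cell number number 4. Without these 15 columns the calls of the 7 blocks by the 2 planned measures were still 0 in all 10 comparisons, and for departure the 1 block called in IVF 4-cell against 2-cell embryos was lost and 3 instead of 2 passed in SCNT against IVF at 4 cells.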

How the data were processed

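Single-cell ATAC-seq calls were deposited for 819 blastomeres and 302830 regions. Per the file headers regions carry running numbers only, and every deposited value is 0 or 1, another unit than a read count, taken as closed or open; the authors' rule for an open call and the genome build were not given in the sources used here. Per the submitters' processing notes, the tools included FastQC 0.10.1, Bowtie2 2.2.6 and bedtools. Columns were tied to labelled libraries by their numbers, an inference stated nowhere in the sources; of 938 libraries, 119 without a column were not analysed here.

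Block boundaries were found again from the table (bins of 100 regions, 419 blastomeres with at least 8000 calls, correlation under 0.2 between the 15 bins on each side), and the 7 blocks came out as given. An open call had the expected probability 1 minus the exponential of minus a blastomere factor times a region factor, fitted to the totals over V1 to V274100. Blastomeres with at least 2000 calls were kept (681 of 819). Embryo means were compared per block by two-sided permutation tests (100000 resamples, smallest p 1e-05; exact enumeration for small groups) with Benjamini-Hochberg adjustment at 0.05, over 174 tests for coverage, 116 for absence and 174 for departure, in Python 3.11.15 with NumPy 2.4.6 and SciPy 1.17.1. All 7 blocks are named. The rule for rows took the member open in most columns and a row just outside, and for pairs the 3 lost together most and least often, where ties were many.

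The members and lists were chosen with earlier results of these data known. Coverage and absence were planned. Departure was added after both had called none of the 7 blocks, and the partial-loss rule, the depth classes, the comparison with commonly open rows and the named embryos were also chosen after the table had been seen. The programs were run on the real table before they were tested on simulated data, and they passed that test without change to the measures. Alternatives changed the expected calls, the scaling, the call minimum, thinning to 2000 calls, the rows used, the embryos used and the limit for absence.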

Additional observations from a re-analysis of the deposited data

Results flagged for a closer look

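Embryos far from the others of their group were looked for in groups of 4 to 10 embryos, in coverage and in the percent of blastomeres lacking a block, over 39 sets of values with Dixon's test. It marked 12, which come from 3 groups and are not independent. The usual rate by chance of about 1 in 20 does not apply to 9 of them, percents of blastomeres lacking a block in which every other embryo was at 0: the test marks any such value, whatever its size.

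In the IVF 6-cell group all of the marked values belong to the same embryo. It lacked block 7 in 80% of its blastomeres, blocks 2 and 6 in 40% each and blocks 5 and 9 in 20% each, where the next of 6 embryos had 0. Its coverage of block 7 was 0.0718, and that of the next embryo 0.796. Its mean coverage of block 3 was the highest of the 6, at 1.40, and that of the next was 0.947. A single blastomere of the marked embryo stood at 4.72 in block 3 and its others at 0.230 to 0.766. In the IVF 3-cell group 1 of 6 embryos lacked blocks 5, 6, 8 and 9 in 50% of its blastomeres each, where the others lacked none of these. Among the SCNT 6-cell embryos, the lowest of 5 embryos had a coverage of 0.518 in block 8, and the next 0.958.

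Embryos of other cell numbers than 2, 4 and 8 enter no comparison. Of their IVF blastomeres 12 of 74 (16.2%) lacked at least 1 of the 7 blocks, and 0 SCNT blastomeres did.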

How the results depend on the processing

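No result turned its direction where it was called. Counts below are of the 29 blocks, and every count not named stayed within 1.5 times. Of the values for single blocks of the 7 under the alternatives, 36 lost a call and 10 gained one, all by departure, and 766 kept their side of the threshold. For mean coverage, SCNT against IVF at 2 cells (1 block called) gave 0 with scaling to the median block, with at least 5000 calls and with complete embryos; at 8 cells (1 called) it gave 2 with expected calls as a share of the total, with thinning and with all rows, and 0 with complete embryos. None of these counts includes any of the 7 blocks. For departure, which was itself added after the planned results were seen, all 6 comparisons gave 0 with at least 5000 calls and 0 with complete embryos. With scaling to the median block SCNT against IVF at 8 cells (2 called) gave 1 and IVF 4-cell against 2-cell (1 called) gave 5; the latter gave 2 with thinning and with all rows, and 0 without the libraries of doubtful independence. With all rows IVF 8-cell against 2-cell (13 called) gave 20 and SCNT 8-cell against 2-cell (3 called) gave 5. The cause of these moves was not tested, but fewer embryos enter with at least 5000 calls and with complete embryos.

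The IVF 2-cell blastomeres lacking 3 or more of the 7 numbered 9 to 20 over the alternatives, against 2.00 to 8.84 from independent rates. With 0.2 as the limit for absence, 32 lacked 2 or more, under the 33.9 from independent rates. The comparisons between groups were unpaired, since the labels tie no embryo of a group to an embryo of another. Sister blastomeres were described as pairs, with no test. Precision is limited by the number of open calls, since the depth in reads is unknown.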
